A study of Mus musculus with 4 samples.

Results

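The genes described here encode the proteins of the mitochondrial ribosome, and were taken as every gene whose symbol in the platform annotation starts with Mrpl or Mrps followed by a digit. A probe set counted only where it had 1 gene symbol, and each gene was read from its probe set with the highest mean signal over the 4 arrays. This gave 76 genes, 47 named for the large subunit (Mrpl) and 29 for the small subunit (Mrps), chosen from 156 probe sets, among 18193 genes with a symbol of their own on the array. Mrpl30 and Mrpl53 were present only in probe sets shared with other genes and were not measured here.

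RNA came from the tibialis anterior muscle of C57BL/6J mice in 4 groups, mdx at 1 month and at 3 months of age, and mdx/MMP-2-/- at 1 month and at 3 months, and was hybridised to 1 Affymetrix Mouse Genome 430 2.0 array per group. The mdx mutation, shared by all 4 groups, removes dystrophin, so that muscle goes through rounds of fibre death and regeneration. The mdx/MMP-2-/- mice (below, mdx/MMP-2 null, or null for short) also lack matrix metalloproteinase 2, a protease that cuts extracellular matrix. There was no array of muscle with intact dystrophin, and the labels used here do not say whether an array held RNA of 1 mouse or of several. With 1 array per group there is no replicate error, so a difference between 2 arrays is a description of those arrays and carries no test.

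Mitochondria make a small set of respiratory chain subunits themselves, from messages of their own DNA, on a ribosome that differs from the one in the cytosol. Its ribosomal RNAs come from mitochondrial DNA, whereas all of its proteins are encoded in the nucleus, made in the cytosol and imported. The small subunit binds the message and reads its codons, and the large subunit joins the amino acids and holds the exit tunnel through which the chain leaves. Some of these proteins have counterparts in bacterial ribosomes and others are found only in mitochondria. Skeletal muscle, above all its oxidative fibres, depends on this machinery for the respiratory chain.

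Promoter sequences of the members that differed most are shown because they let the matches to the motifs of NRF-1, GABPA and YY1, factors known to act on nuclear genes for mitochondrial proteins, be seen in place. The windows are RefSeq sequence of GRCm38.p6, run 5′ to 3′ on the gene's strand from 250 bases before to 50 bases after the annotated start, and capitals mark motif matches. The first 5 genes had a difference of at least 1.5-fold between 2 arrays. Mrps18a was added because its window held 2 kinds of motif. Mrps15 (chr4:126046678-126046977, plus strand) held no match, Mrps36 (chr13:100744610-100744909, minus strand) held the Sp1 motif, and Mrpl10 (chr11:97041332-97041631, plus strand) held the NRF-1 motif. Mrpl33 (chr5:31613701-31614000, plus strand) held an NRF-1 motif and an ETS motif next to its start, Mrpl34 (chr8:71464676-71464975, plus strand) held an ETS motif, and Mrps18a (chr17:46110754-46111053, plus strand) held an ETS motif before and a YY1 motif after its start.
Mrps15: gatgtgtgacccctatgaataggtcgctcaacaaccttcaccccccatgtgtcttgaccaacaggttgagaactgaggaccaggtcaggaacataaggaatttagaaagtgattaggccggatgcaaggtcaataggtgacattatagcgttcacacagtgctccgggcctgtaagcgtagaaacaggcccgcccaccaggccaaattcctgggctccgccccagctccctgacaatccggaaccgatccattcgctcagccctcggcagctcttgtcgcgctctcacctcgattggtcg
Mrps36: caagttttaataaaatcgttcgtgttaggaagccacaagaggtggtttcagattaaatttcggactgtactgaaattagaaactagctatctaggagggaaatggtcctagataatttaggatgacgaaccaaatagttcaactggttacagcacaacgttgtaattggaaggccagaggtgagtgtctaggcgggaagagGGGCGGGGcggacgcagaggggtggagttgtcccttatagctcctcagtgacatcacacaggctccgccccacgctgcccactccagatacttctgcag
Mrpl10: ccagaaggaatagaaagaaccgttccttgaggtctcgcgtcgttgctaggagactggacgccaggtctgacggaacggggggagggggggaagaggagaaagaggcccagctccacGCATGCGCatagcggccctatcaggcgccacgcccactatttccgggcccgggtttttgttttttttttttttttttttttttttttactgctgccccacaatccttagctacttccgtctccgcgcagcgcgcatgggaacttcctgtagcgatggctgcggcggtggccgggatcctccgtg
Mrpl33: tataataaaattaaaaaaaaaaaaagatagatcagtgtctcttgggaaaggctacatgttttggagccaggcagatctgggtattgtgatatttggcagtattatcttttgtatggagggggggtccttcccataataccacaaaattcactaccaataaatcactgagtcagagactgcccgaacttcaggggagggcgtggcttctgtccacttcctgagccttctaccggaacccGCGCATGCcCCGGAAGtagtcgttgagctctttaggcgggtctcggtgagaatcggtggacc
Mrpl34: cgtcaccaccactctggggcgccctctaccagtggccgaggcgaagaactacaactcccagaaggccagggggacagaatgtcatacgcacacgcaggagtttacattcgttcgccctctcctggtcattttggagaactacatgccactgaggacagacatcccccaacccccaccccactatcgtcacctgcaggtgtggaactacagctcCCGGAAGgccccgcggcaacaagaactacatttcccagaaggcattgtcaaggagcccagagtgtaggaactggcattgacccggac
Mrps18a: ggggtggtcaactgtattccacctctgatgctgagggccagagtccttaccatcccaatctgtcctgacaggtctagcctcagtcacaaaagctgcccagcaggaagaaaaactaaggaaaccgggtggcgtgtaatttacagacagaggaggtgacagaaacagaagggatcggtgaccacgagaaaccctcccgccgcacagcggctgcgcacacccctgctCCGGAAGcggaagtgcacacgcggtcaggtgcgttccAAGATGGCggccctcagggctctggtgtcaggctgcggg

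Each motif was searched as exact letters on both strands: GCATGCGC for the NRF-1 core, CCGGAAG for the ETS motif that GABPA binds, AAGATGGC for YY1 and GGGCGGGG for Sp1. None of the 4 strings lies within another. The RefSeq table held a window for 67 of the 76 members, 73 windows in all since some genes have several starts. The ETS motif was in 25 of the 73 windows (34.2%), against 11.6% of 21263 windows of protein-coding genes and 8.86% of all 32851 windows of the same length. The YY1 motif was in 12 windows (16.4%), against 3.05% and 2.75%. The NRF-1 core was in 8 windows (11%), against 3.52% and 2.71%. The Sp1 motif was in 18 windows (24.7%), close to the 23.6% of protein-coding genes. At least 1 of the NRF-1, ETS and YY1 motifs was in 37 of the 73 windows (50.7%), against 16.7% of windows of protein-coding genes and 13.3% of all windows. Small subunit genes held the NRF-1 core in 1 of 27 windows and large subunit genes in 7 of 46. The median share of G and C was 58.7% in the members' windows and 56.3% in those of protein-coding genes. These matches are letters in a sequence and say nothing of whether a factor was bound in this muscle.

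**Figure D1:**
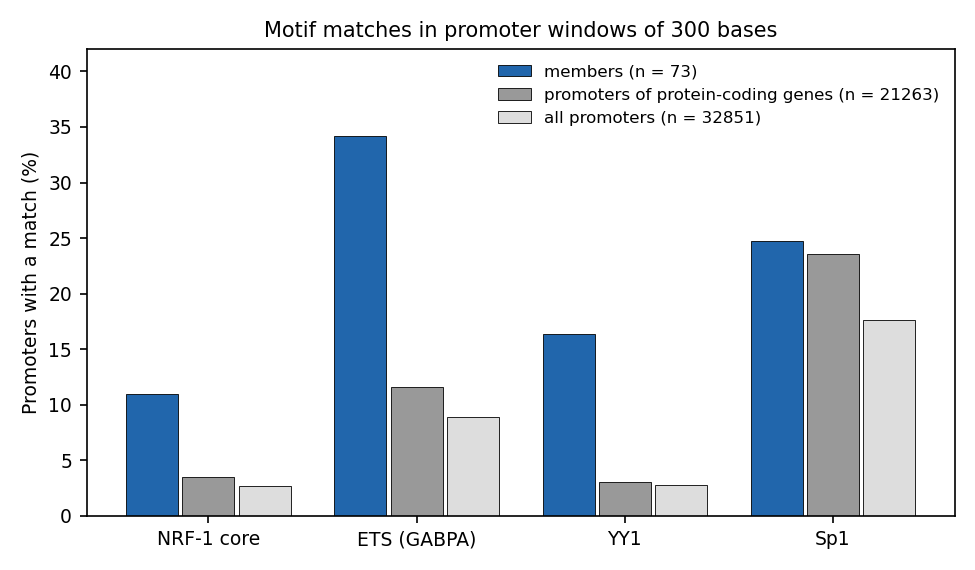
Share of promoter windows of 300 bases with a match to each of 4 motifs, in percent, for the 73 windows of mitochondrial ribosomal protein genes (blue), 21263 windows of protein-coding genes (grey) and all 32851 windows (light). The members' bars stand above the others for the NRF-1 core, the ETS motif and YY1, and beside the protein-coding genes for Sp1.

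Members with and without a motif had similar medians in the array data. The 37 genes with an NRF-1, ETS or YY1 match had a median genotype difference at 3 months of -0.13 on the log2 scale, and the 30 without one had -0.08. For the age difference in mdx/MMP-2 null muscle the medians were -0.20 and -0.15.

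A further trait, held by a part of the members, was position. Of the 67 members with a window, 23 (34.3%) had the start of another protein-coding gene within 1000 bases, running the opposite way, against 1483 of 17492 protein-coding genes (8.48%). Other lists of mitochondrial or widely expressed genes were not compared. The starts of Mrpl46 and Mrps11 lay 42 bases apart, and Mrpl43 shared such a region with Twnk, the mitochondrial DNA helicase. Other partners were Sars2 (with Mrps12), Ndufb5 (with Mrpl47) and Psma2 (with Mrpl32). In 20 of these pairs both genes were above the floor, with the Mrpl46 and Mrps11 pair counted once from each side. The 2 genes of a pair had differences of the same sign in 10 of the 20 for genotype at 1 month, 11 for genotype at 3 months, 9 for age in mdx and 13 for age in mdx/MMP-2 null.

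The deposited MAS5 signals had not been set to a common level, with array medians between 15.1 and 19.7, so the 4 arrays were quantile scaled and signals under the median of all probe sets (17.4) were raised to that floor. All values below are these scaled signals or differences of their log2 values, and a log2 difference of 0.58 is 1.5-fold. Signals of different probe sets are not on 1 scale, so single genes are compared only with themselves across arrays. Summed signals of a marker list are set mostly by its brightest probe sets, so counts of genes are given with them. Mmp2 checked the labels: its signal was 974 and 834 in the mdx arrays at 1 and 3 months, and 20.8 and 38.4 in the mdx/MMP-2 null arrays, 46.81-fold and 21.73-fold lower. All 11 fast fibre markers were above the floor in muscle labelled as tibialis anterior, and Dmd was measured in all arrays but cannot check the mdx label without muscle that has dystrophin. Of the other cell types, 13 of 13 measured macrophage markers and 7 of 7 slow fibre markers had a higher signal in the null than in the mdx array at 3 months, and of the fast fibre markers 4 were higher and 5 lower. The summed macrophage signal was 12622 and 9220 in mdx at 1 and 3 months and 11708 and 13344 in null muscle, and that of slow fibre markers 4372 and 3931, then 4928 and 5738. Neutrophil markers were higher in the null array at 3 months in 5 of 6 measured genes, with a median of 1.46 and a summed signal of 192 and 98.3 in mdx and 212 and 688 in null muscle; Ltf and Elane were at the floor. Fibroblast markers were higher in 8 of 9 (median 0.14; sums 40584 and 32105, then 39540 and 34125) and endothelial markers lower in 6 of 8 (median -0.22; sums 1735 and 1326, then 1895 and 1227). With age in null muscle, 6 of 6 markers of regenerating fibres (median -0.67; sums 17308 and 10926 in mdx, 17294 and 10460 in null muscle) and 7 of 8 endothelial markers (median -0.73) were lower. In mdx the same lists were lower with age in 6 of 6 (-1.20) and 6 of 8 (-0.61). No macrophage, slow fibre, regenerating fibre, fibroblast or endothelial marker was at the floor in all arrays, and the part of any of these cell types in the differences below was not tested. The ratio of 3′ to 5′ signal of Actb, a measure of RNA or cDNA length, was 1.05 and 1.19 in the 1 month arrays and 2.09 and 2.36 in the 3 month arrays. The same ratio for Gapdh was 0.85 and 0.88 at 1 month and 0.94 in both 3 month arrays. The Actb ratio thus moved with age more than that of Gapdh, and the part of RNA length in the age differences was not tested.

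All 76 members were above the floor in all 4 arrays, with signals from 86.6 (Mrps5) to 4280 (Mrpl51), so none was lost to the floor. Their median signal was 539 and 505 in the mdx arrays at 1 and 3 months, and 553 and 463 in the null arrays. The 3 month mdx/MMP-2 null array thus had the lowest median, and the 3 month mdx array the next lowest. This order held in both subunits, with 517 in mdx and 505 in null muscle at 3 months in the large subunit, and 448 and 418 in the small subunit. The 3 month null array was the lowest of the 4 arrays for 47 of the 76 genes (61.8%), for 31 of 47 in the large and 16 of 29 in the small subunit. Over all 12781 genes above the floor it was the lowest for 21.6%, and over the 6558 genes within the members' signal range for 26.2%. It was the highest array for 6 members. This array enters both the genotype difference at 3 months and the age difference in mdx/MMP-2 null, so a low value in it lowers both. In bulk muscle, fewer fibres or mitochondria-rich cells and less RNA per cell cannot be told apart.

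At 1 month, after quantile scaling, the members' signals were centred on no difference between genotypes. The median log2 difference, mdx/MMP-2 null minus mdx, was -0.00 over all members, 0.01 in the large and -0.02 in the small subunit, and 0.00 over all genes. The middle 50% of members lay between -0.09 and 0.07, inside the range from -0.16 to 0.14 of all genes. Lower values were found in 39 of 76 members, beside 48.4% of all genes. No member reached 1.5-fold in either direction, beside 3.51% of all genes higher and 3.58% lower. At a log2 difference of 0.32 or more, 2 members were higher and 3 lower, beside 11.3% and 11.8% of all genes. With median scaling the median was -0.15 over members and -0.10 over all genes, with 65 of 76 lower and 52 of 76 under the median of all genes; at 3 months that scaling gave -0.07 and 52 lower.

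The members with the widest genotype differences at 1 month were spread over both subunits. Mrps35, a protein found only in the mitochondrial small subunit, went from 213 in the mdx to 289 in the null array at 1 month, and from 254 to 229 at 3 months. It was therefore higher without MMP-2 at 1 month (log2 difference 0.44) and lower at 3 months (-0.15). Mrpl38, of the large subunit, had 129 and 171 at 1 month and 194 and 171 at 3 months, with differences of 0.41 and -0.18. Its chosen probe set is of a type that may also bind related transcripts, and its other probe set above the floor in all 4 arrays gave 0.06 and 0.05. Mrpl33, the counterpart of the small bacterial protein L33, had 2149 and 1628 at 1 month and 2663 and 2453 at 3 months, and was lower in the null arrays, with differences of -0.40 and -0.12. Mrps26 had 450 and 353 at 1 month (-0.35) and 377 and 405 at 3 months (0.10). Mrps6, whose bacterial counterpart S6 sits on the platform of the small subunit, had 263 and 208 at 1 month (-0.34) and 228 and 285 at 3 months (0.32). Its other probe set gave 121 and 118, then 115 and 123, so that the wide swing of Mrps6 was seen by 1 of 2 probe sets.

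At 3 months most mitochondrial ribosomal protein genes had slightly lower signals in mdx/MMP-2 null than in mdx muscle. The median log2 difference was -0.13 over all members, -0.14 in the large and -0.08 in the small subunit, beside 0.00 over all genes and -0.02 over genes in the members' signal range. Lower values were found in 63 of 76 members (82.9%), in 41 of 47 and 22 of 29 by subunit, beside 48.1% of all genes. The middle 50% of members lay between -0.20 and -0.04, a narrower range than the -0.18 to 0.20 of all genes. The difference was small for single genes. At 1.5-fold 1 member, Mrps15, was lower and none was higher, beside 3.31% of all genes lower and 6.11% higher. At 0.32 on the log2 scale, 5 members were lower and none higher, beside 12.5% and 16% of all genes. Among the 6558 genes in the members' signal range, 1.27% were lower and 3.35% higher at 1.5-fold, beside 1.32% and 0% of members. At 0.32, 9.21% were lower and 11.8% higher, beside 6.58% and 0% of members.

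**Figure D2:**
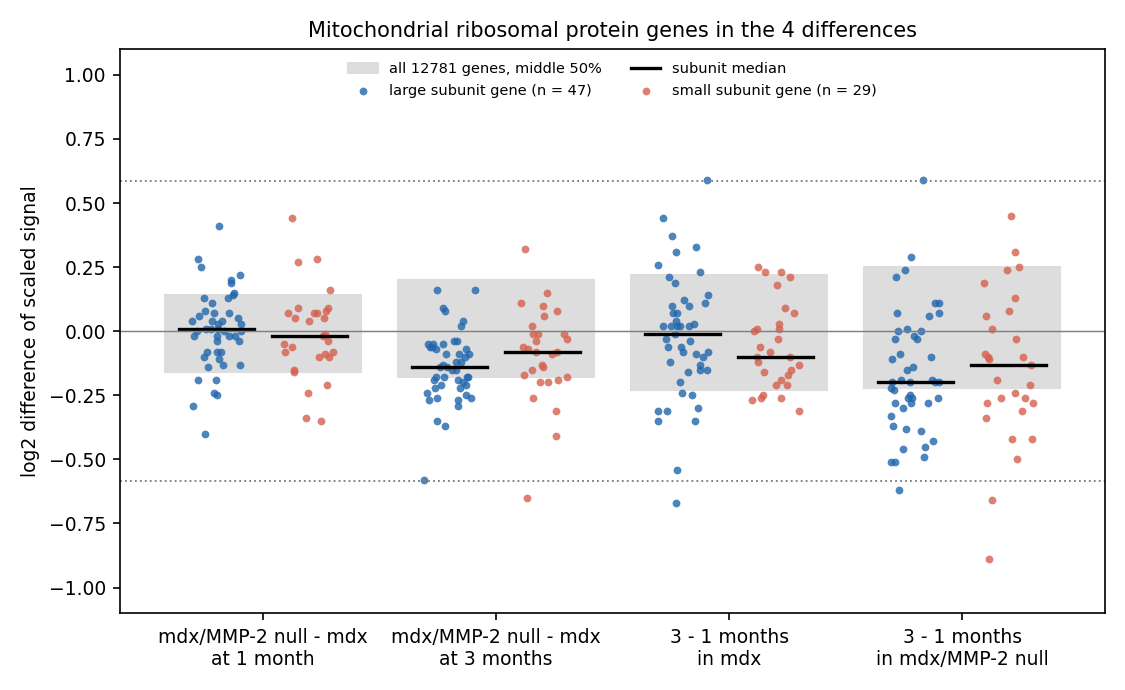
Log2 differences of the 76 genes in each of the 4 comparisons of 2 arrays, large subunit in blue and small subunit in red, with black lines at the subunit medians, grey boxes for the middle 50% of all 12781 genes and dotted lines at 1.5-fold. The points lie mostly below 0 in the genotype difference at 3 months and the age difference in mdx/MMP-2 null, which share 1 array.

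The direction rested on the further scaling of the deposited signals. Without scaling, the genotype difference at 3 months had a median of 0.31 over the members and 0.41 over all genes. Relative to all genes the members then stood 0.10 lower, with 57 of 76 under the median of all genes. With median scaling they stood 0.12 lower, with 61 of 76 under it, and with cyclic loess scaling the members' median was -0.11. The lower values are therefore values relative to the rest of the array.

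Mrps15, the counterpart of bacterial S15, had signals of 1056 and 924 in mdx at 1 and 3 months, then 1093 and 589 in the null arrays. The last array stood alone below the other 3, with a genotype difference at 3 months of -0.65 and an age difference in mdx/MMP-2 null of -0.89. A second probe set of Mrps15 gave 803, 719, 816 and 696 in the same order, which is -0.05 for genotype and -0.23 for age. The low value was therefore seen by 1 of its 2 probe sets above the floor, and the gene's call at 1.5-fold rests on that probe set.

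Mrpl27, the counterpart of bacterial L27, which reaches toward the site where peptide bonds form, had 1060 and 1164 in mdx at 1 and 3 months and 1066 and 777 in null muscle. Its genotype difference at 3 months of -0.58 was just under 1.5-fold. A dim second probe set of Mrpl27 (42.5, 46.5, 45.1 and 71.1) went the other way, with 0.61. Mrps36 had 1228 and 1063 in mdx and 1265 and 799 in null muscle, with -0.41 at 3 months. Mrps36 was named as a small subunit protein but is known as a component of the 2-oxoglutarate dehydrogenase complex of the citric acid cycle. Mrpl3, a core large subunit protein whose human gene is mutated in an inherited heart muscle disease, had 458 and 456 in mdx and 500 and 352 in null muscle, with -0.37 at 3 months. Its second probe set gave 288 and 191 in mdx and 210 and 163 in null muscle, with -0.23, and another, dim one gave 0.25. All 3 genes thus had their lowest signal of the chosen probe set in the same array.

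Lower signals in the null array at both ages were found in 31 members (40.8%), beside 23.3% of all genes. Mrpl47, the counterpart of bacterial L29, had 567 and 462 at 1 month and 517 and 407 at 3 months, with differences of -0.29 and -0.35. Mrps22, whose human gene is mutated in an inherited deficiency of the respiratory chain, had 333 and 283 at 1 month and 303 and 245 at 3 months, with -0.24 and -0.31. A further 32 members (42.1%) were higher at 1 month and lower at 3 months, beside 22.3% of all genes. There were 5 members (6.58%) higher at both ages, beside 22.3%, and 8 (10.5%) lower and then higher, beside 22.9%. With 39 of 76 members lower at 1 month and 63 of 76 at 3 months, these shares mostly restate the 3 month direction. With median scaling, 65 of 76 were lower at 1 month. The highest values at 3 months were those of Mrps6 (0.32), Mrpl28 and Mrpl43 (0.16 each, with -0.03 and -0.06 in the other probe sets of Mrpl28) and Mrps18b (0.15). Mrps18b belongs to a family of 3 related proteins of which Mrps18a is now known to sit in the large subunit. At 3 months Mrps18a had 778 in the mdx and 650 in the null array (-0.26), Mrps18b 275 and 306, and Mrps18c 975 and 952 (-0.03).

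**Figure D3:**
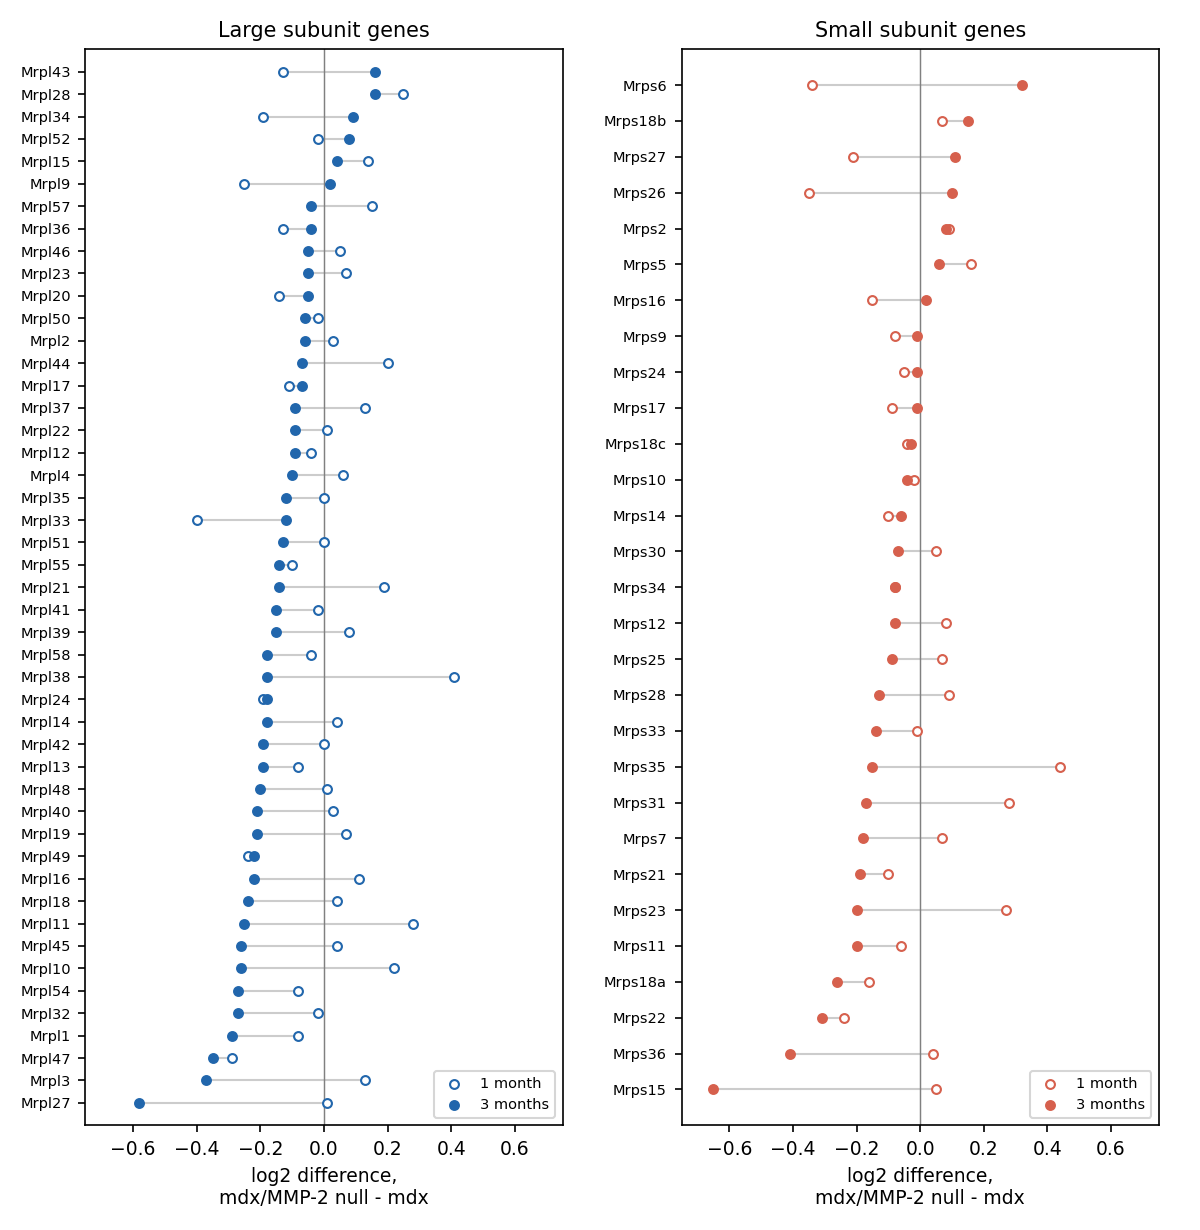
Log2 difference between mdx/MMP-2 null and mdx for each gene at 1 month (open) and 3 months (filled), ordered by the value at 3 months, large subunit left and small subunit right. Filled points lie below 0 for 41 of 47 and 22 of 29 genes, and Mrps15 and Mrpl27 stand lowest.

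Other proteins with known roles stayed under 0.32 on the log2 scale in every comparison with the chosen probe set. Mrpl12, which forms the stalk that recruits translation factors, had 1827 and 1864 in mdx at 1 and 3 months and 1783 and 1747 in null muscle, with log2 differences between -0.09 and 0.03. Mrps12, part of the decoding centre, had 707 and 668 in mdx and 750 and 633 in null muscle, with -0.24 for age in null muscle. Mrps16, also a disease gene in humans, had 1118 and 1172 in mdx and 1009 and 1190 in null muscle, with 0.24 for age there. Mrps30, a large subunit protein in spite of its name, stayed between 315 and 334. Mrps5 stayed between 86.6 and 103, while its dimmer probe sets above the floor gave genotype differences at 3 months of -0.45 and -0.48.

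Age differences in mdx muscle had no common direction. The median, 3 months minus 1 month, was -0.05 over all members, -0.01 in the large and -0.10 in the small subunit, with 43 of 76 lower beside 47.7% of all genes. At 1.5-fold 1 member was higher and 1 lower, beside 5.95% and 7.29% of all genes, and at 0.32 on the log2 scale there were 4 higher and 4 lower, beside 17.4% and 18.9%. The member lower at 1.5-fold was Mrpl34, the counterpart of the small bacterial protein L34, with 413 at 1 month and 260 at 3 months in mdx (-0.67) and 362 and 277 in null muscle (-0.39). The member higher was Mrpl38, with signals of 129 and 194 in mdx (0.59) and 171 at both ages in null muscle. Its other, dim probe set above the floor in all arrays had 25.2 and 27.2 in mdx (0.11), so the call rests on the chosen probe set. Mrpl11, a protein near the factor-binding site, had 543 and 739 in mdx (0.44) and 658 and 619 in null muscle (-0.09). A second probe set of Mrpl11, of similar signal, had 620 and 646 in mdx (0.06) and 541 and 605 in null muscle (0.16), without the age difference in mdx or the change of sign between ages in the genotype difference (-0.20 and -0.09), and a dimmer one gave age differences of -0.06 and 0.43. Mrpl44, which resembles a ribonuclease, had 326 and 422 in mdx (0.37) and 374 and 403 in null muscle (0.11). Of its 3 other probe sets, 1 gave 0.44 in mdx and 2 went the other way, with -0.11 (239 and 222) and -0.38 (62.3 and 48.0).

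In mdx/MMP-2 null muscle the chosen probe sets were mostly lower at 3 months than at 1 month, but the genes' other probe sets were not. The median of the chosen probe sets was -0.20 over all members, -0.20 in the large and -0.13 in the small subunit, with 57 of 76 lower (75%), beside 45.8% of all genes. At 0.32 on the log2 scale, 17 members were lower and 2 higher, beside 17.6% and 19.7% of all genes. At 1.5-fold 3 were lower and 1 higher, beside 6.71% and 7.48%. The share of members lower was thus above the background at the first size (22.4%) and below it at 1.5-fold (3.95%). The same members had 47 other probe sets, of 29 genes, above the floor in all arrays. Their median age difference in mdx/MMP-2 null was 0.10 with 16 of 47 lower, whereas the chosen probe sets of these 29 genes had -0.11 with 17 of 29 lower. Among the 29 other probe sets with a mean signal of at least 100 the median was also 0.10, with 10 of 29 lower.

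For the genotype difference at 3 months, the other probe sets had a median only slightly below 0. It was -0.05 with 27 of 47 lower, beside 48.1% of all genes. Where the mean signal was at least 100 it was -0.08, with 20 of 29 lower. Where it was under 100 the median was 0.07, with 7 of 18 lower, so the other probe sets split by signal. The chosen probe sets of the same genes had -0.13 with 23 of 29 lower. The genotype difference at 1 month was -0.01 in the other probe sets, with 24 of 47 lower, and the age difference in mdx was 0.04, with 20 of 47 lower. Signs matched between chosen and other probe sets in 21 to 24 of 47 probe sets in the 4 differences, and in 24 of 47 for genotype at 3 months. The direction of a gene's chosen probe set was thus often not that of its other probe sets.

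**Figure D4:**
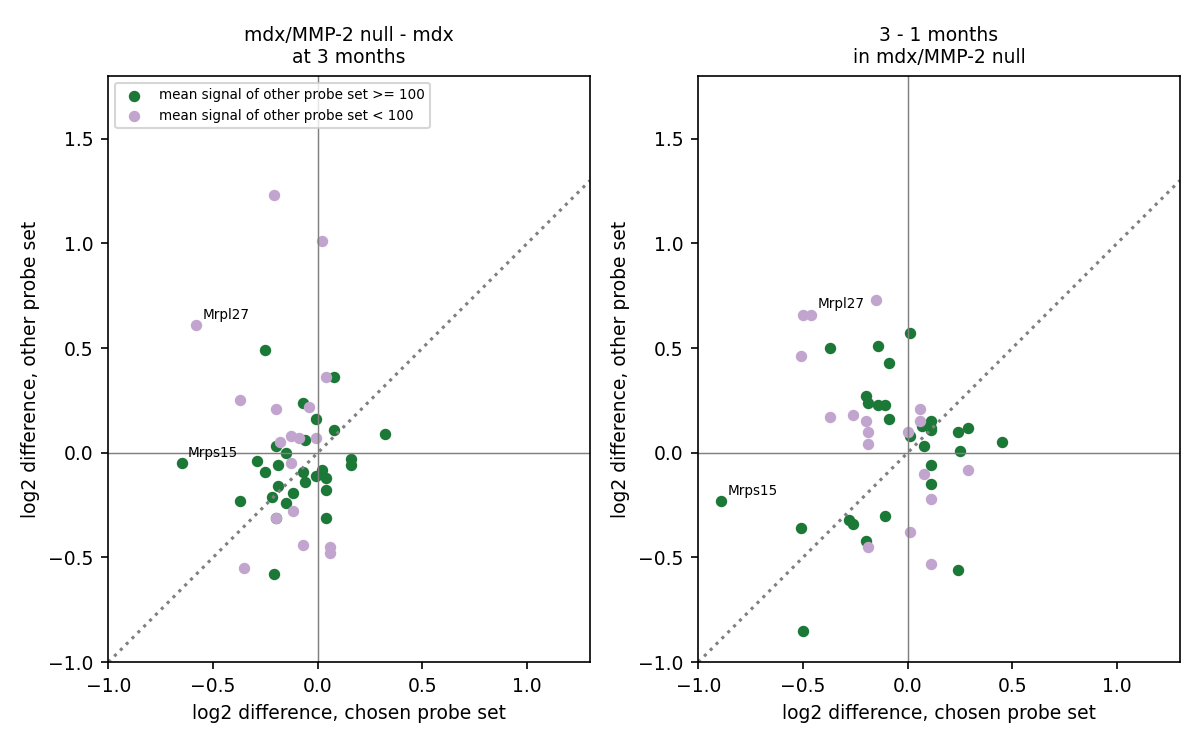
Log2 difference of each of the 47 other probe sets against that of the gene's chosen probe set, for the genotype difference at 3 months (left) and the age difference in mdx/MMP-2 null (right), green where the other probe set's mean signal was at least 100. Points off the dotted line of equality, such as Mrps15 and Mrpl27, show probe sets of 1 gene that gave different values.

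The 3 members lower by 1.5-fold with age in mdx/MMP-2 null were Mrps15 and Mrps36 (-0.66), described above, and Mrpl10. Mrpl10, which anchors the Mrpl12 stalk, had 202 and 182 in mdx at 1 and 3 months and 234 and 153 in null muscle (-0.62). Mrpl33 was higher by 0.59 in mdx/MMP-2 null and by 0.31 in mdx. Mrpl17, near the exit tunnel, had 835 and 575 in mdx (-0.54) and 774 and 550 in null muscle (-0.49). Mrpl4, which lines the exit tunnel, had 631 and 497 in mdx (-0.35) and 657 and 462 in null muscle (-0.51). The scaling also decided the sign of the age difference in mdx/MMP-2 null: without scaling the members' median was 0.17 beside 0.26 over all genes, and with median scaling 0.11 beside 0.19. In both, 44 of 76 members lay under the median of all genes, fewer than the 57 with quantile scaling.

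A model with genotype and age as additive terms was the only test that 4 single arrays allow, with 1 residual degree of freedom per gene. In limma with Benjamini-Hochberg adjustment over 12781 genes, it called 0 members and 0 of all genes (0%) for genotype, and 0 members and 0 of all genes (0%) for age. The lowest adjusted p-value of a member in limma was 0.98 for genotype and 0.31 for age. At an unadjusted p-value under 0.05 limma passed 0 members for genotype, beside 559 genes (4.37%), and 4 members for age (5.26%), beside 1763 genes (13.8%). These 4 were Mrpl17 (-0.52 with a standard error of 0.15), Mrpl34 (-0.53 with 0.16) and Mrpl4 (-0.43 with 0.15), lower at 3 months, and Mrpl33 (0.45 with 0.16), higher. The median standard error of a member was 0.15 for either term, above the median genotype estimate of -0.06, so a shift of this size in a single gene was not detectable with these arrays. The genotype term is a mean over both ages, and a genotype difference that changes with age counts as spread. The fit is therefore no test of the genotype difference at 3 months alone.

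With quantile scaling, the genotype difference of most members was lower at the later age. It was lower at 3 months than at 1 month in 56 of 76 members (73.7%), with a median change of -0.11, beside 49.5% of all genes and a median of 0.00. It was lower in 37 of 47 large and 19 of 29 small subunit genes. Without scaling the median change was 0.24 over members and 0.31 over all genes, and with median scaling 0.08 and 0.16, so its sign turned. Relative to the median of all genes, 50 of 76 members lay lower without scaling and 52 with median scaling. The change between ages leaves no residual degree of freedom and has no test.

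Members with a bacterial counterpart and members found only in mitochondria were both mostly lower in the null array at 3 months, and 3 genes with Mrps names were put in neither class. Small subunit values over 29 genes follow the gene names, and so include Mrps18a, Mrps30 and Mrps36. At 3 months the median genotype difference was -0.13 in 28 bacterial type and -0.15 in 19 mitochondrion-specific large subunit genes, and -0.04 in 16 and -0.12 in 10 such small subunit genes. Lower values were found in 24 of 28, 17 of 19, 12 of 16 and 7 of 10. Proteins of the ribosome with other kinds of names were also lower at 3 months in 4 of 4 cases: Ptcd3 had 505 in the mdx and 410 in the null array (-0.30), Chchd1 2180 and 1943 (-0.17), Gadd45gip1 389 and 357 (-0.12) and Dap3 478 and 472 (-0.02).

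Other steps of mitochondrial translation gave a mixed picture. A list of 13 genes held translation factors and, beside them, Oxa1l, Lrpprc and Slirp. Of the 13, 11 had a lower signal in the null array at 3 months (median -0.25) and 9 at 1 month (median -0.09). Mtif3, an initiation factor, had 127 in the mdx and 87.4 in the null array at 3 months (-0.54). Oxa1l, which inserts new chains into the inner membrane, had 139 and 82.2 at 1 month and 115 and 79.1 at 3 months and was lower at both ages. Gfm2, a ribosome recycling factor, had 70.1 and 69.4 in mdx and 100 and 48.6 in null muscle. Of 25 genes for assembly of the ribosome, 15 were lower in the null array at 3 months (median -0.07). Mtg2, a GTPase of large subunit assembly, had 73.9 and 90.6 in mdx and 148 and 63.4 in null muscle, a difference of 1.01 at 1 month and -0.51 at 3 months. Mitochondrial tRNA synthetases, listed together with Qrsl1, Gatb and Gatc, were lower in 16 of 19 cases at 3 months (median -0.19). At 1 month 14 were lower (median -0.17). Genes for mitochondrial DNA transcription and maintenance were lower in 13 of 17 at 3 months, with -0.08.

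The nuclear genes of the respiratory chain, whose products join those made on this ribosome, had a median genotype difference at 3 months of -0.10, with 59 of 71 lower. With age, 15 of 71 were lower in mdx, with a median of 0.09, and in mdx/MMP-2 null the median was 0.01. The citric acid cycle genes had -0.10 for genotype at 3 months (11 of 14 lower) and -0.20 for age in mdx/MMP-2 null (10 of 14 lower). Ogdh, the enzyme whose complex holds Mrps36, had 2022 and 1407 in mdx and 2175 and 1268 in null muscle. Mitochondrial import genes had -0.04 for genotype at 3 months, with 19 of 29 lower. Proteins of the cytosolic ribosome stood on the other side, with a median of 0.09 and 8 of 45 lower. The differences between lists were not tested.

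**Figure D5:**
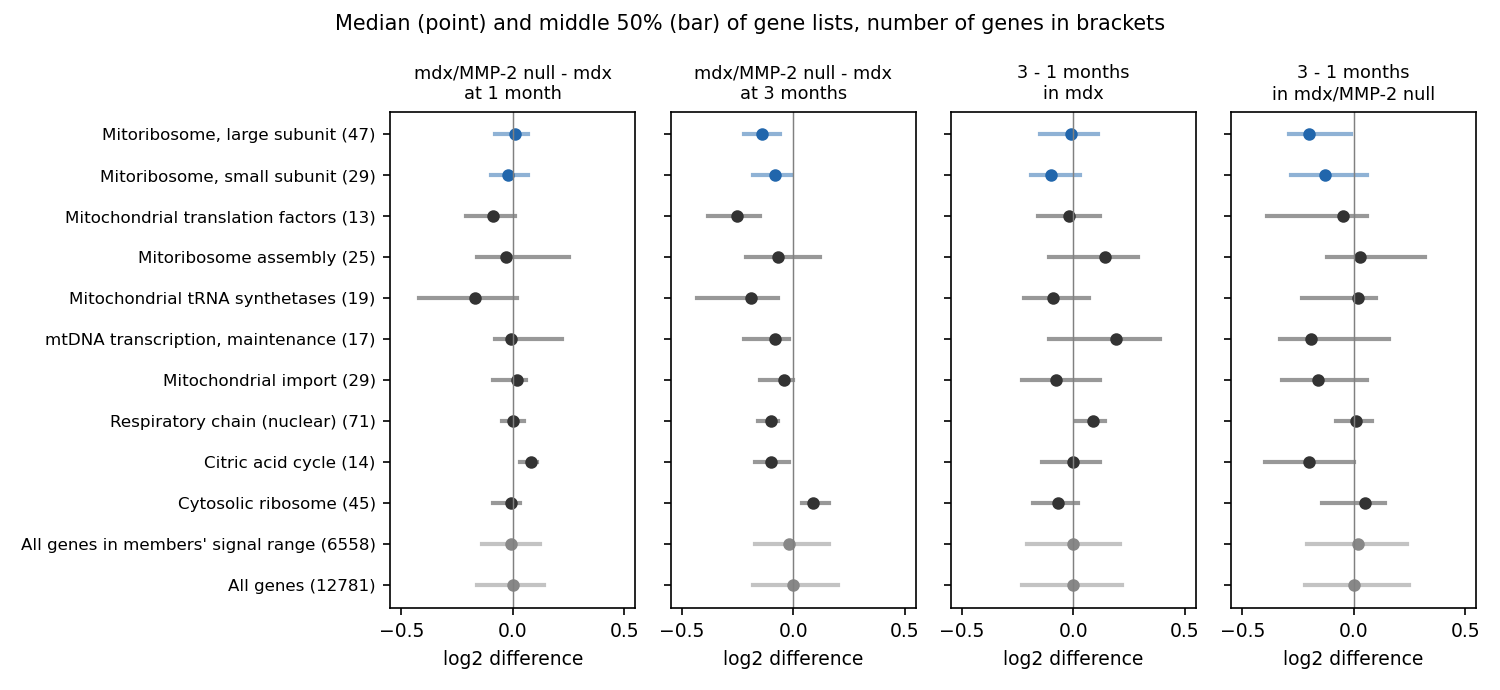
Median (point) and middle 50% (bar) of the log2 differences of each gene list in the 4 comparisons, with the number of genes in brackets and the mitochondrial ribosome in blue. The translation factor list also holds Oxa1l, Lrpprc and Slirp, and the tRNA synthetase list Qrsl1, Gatb and Gatc. In the genotype difference at 3 months the medians of the mitochondrial lists lie below 0 and that of the cytosolic ribosome above it. The bar of the assembly list reaches above 0.

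Among 11 regulators of mitochondrial gene expression, 7 were lower in the null array at 3 months (median -0.13). Ppargc1a, a coactivator that promotes formation of mitochondria, had 300 and 435 at 1 month and 537 and 346 at 3 months, so it was higher in the null array at 1 month (0.53) and lower at 3 months (-0.64). Ppargc1b, a related coactivator, had 361 and 267 at 1 month and 284 and 218 at 3 months, lower in the null array at both ages. Nrf1, which encodes NRF-1, had 45.8 and 26.6 at 1 month (-0.78) and 45.8 and 41.8 at 3 months (-0.13), with an age difference of 0.65 in null muscle. These Nrf1 signals were dim, not far above the floor of 17.4. Myc had 132 and 64.7 at 1 month (-1.03) and 98.9 and 102 at 3 months (0.04). Gabpa, which binds the ETS motif, stayed between 283 and 301. Yy1 had 520 and 473 at 1 month and 552 and 570 at 3 months.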

How the data were processed

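RNA of 4 groups, 1 array each, was measured on Affymetrix Mouse Genome 430 2.0 arrays. The deposited values are linear MAS5 signal intensities of 45101 probe sets. The submitters' processing notes name MAS5 and Affymetrix Expression Console, and a target level is not given in the sources used here. Here 64 control probe sets were left out, the 4 arrays were quantile scaled (limma 3.58.1 in R 4.3.3), signals under the 50th percentile were raised to it, and log2 was taken. Gene names came from the platform annotation. Members and gene lists were chosen with earlier results of these data known. Also chosen after values had been seen were the alternatives for the change between ages, the counts of lower genes and lowest arrays, the signal-range background, the split of other probe sets at a signal of 100, the neighbouring starts and the printed promoters. Named members were the 5 largest differences each way in each comparison, those past 1.5-fold, and 14 genes of known role. The additive limma fit was tested on simulated data. Alternatives covered scaling, floor, choice of probe set and fold size. Protein sequences were not used here.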

Additional observations from a re-analysis of the deposited data

Results flagged for a closer look

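Of the 33 named members, 22 had a genotype difference of opposite sign at the 2 ages, or an age difference of opposite sign in the 2 genotypes. With 1 array per group such a reversal was not tested, and it is common: it was found in 43 of 76 members (56.6%) and in 55.6% of all genes. No size was required; no member had opposite differences past 0.32 on the log2 scale on both sides, although Mrps6 (-0.34 and 0.32) fell short only before rounding, beside 4.48% of all genes for genotype and 4.1% for age. Values are the genotype log2 difference at 3 months minus that at 1 month.

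In some of the 22, both the genotype and the age difference changed sign: Mrpl11 (-0.53), Mrpl27 (-0.59), Mrpl38 (-0.60), Mrps26 (0.45), Mrps27 (0.32), Mrps30 (-0.11), Mrps31 (-0.45), Mrps35 (-0.59) and Mrps6 (0.66). In Mrpl12 (-0.06) it was the age difference alone. In the others it was the genotype difference alone. Of these, the change was downward in Mrpl10 (-0.47), Mrpl3 (-0.50), Mrpl4 (-0.16), Mrpl44 (-0.27), Mrps12 (-0.16), Mrps15 (-0.70), Mrps23 (-0.47) and Mrps36 (-0.46). It was upward in Mrpl34 (0.28), Mrpl43 (0.30), Mrpl9 (0.27) and Mrps16 (0.17). For Mrpl11, Mrpl27, Mrpl3, Mrpl38, Mrps15 and Mrps6 another probe set of the gene gave other values, as described above. Other probe sets of Mrpl9 gave genotype differences at 1 and 3 months of 0.08 and -0.08, and 0.19 and 1.01. Those of Mrps23 gave -0.01 and -0.31, and -0.16 and 0.21. Those of Mrpl44 gave 0.01 and 0.24, -0.29 and -0.44, and 0.20 and -0.09. The rest of the 22 had no other probe set above the floor in all 4 arrays.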

How the results depend on the processing

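The sign of the members' median depended on scaling in all 4 differences and in their change between ages. Without scaling, the genotype difference at 3 months had medians of 0.31 over members, 0.28 in the large and 0.35 in the small subunit, with 5 members higher by 1.5-fold and 0 lower. The age difference in mdx/MMP-2 null then had 0.17, 0.18 and 0.17, with 7 members higher and 0 lower, and 0 members were higher with age in mdx. Median scaling gave -0.15, -0.15 and -0.18 for genotype at 1 month, where unscaled signals gave 0.07. It gave 0.05, 0.10 and 0.02 for age in mdx, and 0.11, 0.11 and 0.11 for age in mdx/MMP-2 null, with 3 members higher and 0 lower there. The change between ages in the genotype difference was 0.24 without scaling and 0.08 with median scaling.

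Taken relative to the median of all genes, an alternative chosen after seeing the data, unscaled signals gave -0.08 over members and -0.08 in the large subunit for age in mdx/MMP-2 null, with 1 member lower by 1.5-fold, and 0 higher with age in mdx. Median-scaled signals gave -0.08 and -0.07 there, with 1 lower, 0.01 in the small subunit for age in mdx, and 2 lower for genotype at 3 months.

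The mean of all probe sets gave -0.09 over members and -0.03 in the large subunit for age in mdx/MMP-2 null, with 0 members higher there, 0 lower for genotype at 3 months and 0 higher with age in mdx. The last count was also 0 with a pseudocount of 4.36 in place of the floor and without probe sets that may bind related transcripts. At a log2 difference of 0.32 the counts were 2 higher and 3 lower for genotype at 1 month, 5 lower for genotype at 3 months, 4 higher and 4 lower for age in mdx, and 2 higher and 17 lower for age in mdx/MMP-2 null, and at 2-fold all were 0. The additive fit passed 4 members for age at an unadjusted p-value. The cause of these changes was not tested. Cyclic loess and the floor at the 40th or 60th percentile changed none of these calls. Of 1312 values of named members, 1225 stayed close and 87 moved.

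Leaving out replicates was not run: each group has 1 array. No paired analysis was possible because no group has replicate numbers.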
